A study of Mus musculus with 12 samples.

Results

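The genes described here are the nuclear-encoded genes of the mitochondrial respiratory chain and ATP synthase, measured in distal ileum from BALB/c mice. They were chosen by symbol. A gene was a member where its symbol began with Ndufa, Ndufb, Ndufc, Ndufs, Ndufv, Sdh, Uqcr, Cox4, Cox5, Cox6, Cox7, Cox8 or Atp5, and 4 pseudogene names with -ps were left out. This gave 96 of the 45808 genes in the table, of which 83 encode subunits and 13 encode assembly or associated factors. The libraries came from 2 groups of 6, mice given phosphate-buffered saline (PBS) and mice treated with Porphyromonas gingivalis, an oral bacterium linked to periodontitis. All 12 share the strain and the tissue. Age, route, dose and duration of treatment, and whether each library came from its own mouse, were not given in the sources used here, so p-values measure the spread between these samples, which may be technical. By its title, the series asks how the bacterium relates to inflammation of the intestine.

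The respiratory chain moves electrons from NADH and succinate to oxygen through complexes I to IV in the inner mitochondrial membrane, and complex V, the ATP synthase, uses the resulting proton gradient to make ATP. Most subunits of complexes I, III, IV and V and every subunit of complex II are encoded in the nucleus, while the remaining subunits are encoded in mitochondrial DNA. Absorptive cells of the small intestine hold many mitochondria, which supply ATP to maintain the ion gradients that nutrient uptake uses. The factors NRF1, GABP (of the ETS family), YY1 and the oestrogen-related receptors (ERR), with the coactivator Ppargc1a, are known regulators of these genes.

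Levels are normalized counts (mean ± SD where a ± is given, n = 6 per group). A difference is the P. gingivalis mean minus the PBS mean of log2(normalized count + 1), given with its standard error (SE). Recovered depth ran from 6553306 to 10378841 reads per library, and the members took from 1.05% of them in P. gingivalis replicate 4 to 1.55% in PBS replicate 2. Some libraries stood apart, and 3 went against the tissue label. Fabp6, the ileal bile acid binding protein and a marker of the labelled tissue, was between 2.52 and 16.0 in PBS replicate 6 and P. gingivalis replicates 1 and 5, against at least 11246 in the other 9. P. gingivalis replicate 6 had the lowest sum of 12 enterocyte markers (97861, others 226628 to 459023) and the highest sum of 10 smooth muscle markers (29944, others 8425 to 22951). The 18S ribosomal RNA gene Rn18s-rs5 stood at 56116 and 360204 in P. gingivalis replicates 2 and 4, against at most 443 elsewhere, and without those 2 libraries 69 of 90 members had a negative difference.

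Of the 96 members, 90 reached the limit for testing, an average of at least 10 normalized counts across the libraries, with means from 21.1 to 12287. None of these 90 passed the test between the groups. At an adjusted p of 0.05 limma called 0 higher and 0 lower (smallest limma adjusted p = 0.992), beside 0% of all 15025 genes tested. An unadjusted p under 0.05 was reached by 0 of 90 members and by 3.73% of all genes. On the recovered reads edgeR called 0 of 90 members and 0% of all genes, and DESeq2 called 0 of 90 and 0.186% of all genes. The groups overlapped for all 90, while 0.166% of all genes had no overlap.

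The small differences that were measured lay mostly on one side. Of the 90 members, 77 had a negative difference (85.6%, beside 51.1% of all genes), and their median was -0.084 against -0.0039 over all genes. The differences ran from -0.27 to 0.16, with a median SE of 0.14. Leaving out either of 2 single libraries brought the median near 0. Without PBS replicate 2 the median was -0.0074 with 50 of 90 negative (51.4% of all genes), and without P. gingivalis replicate 6 it was -0.014 with 54 of 90 negative (49% of all genes). Without the 3 libraries with Fabp6 near 0 it was -0.17 with 88 of 90 negative (51.9% of all genes), and again 0 members were called.

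**Figure D1:**
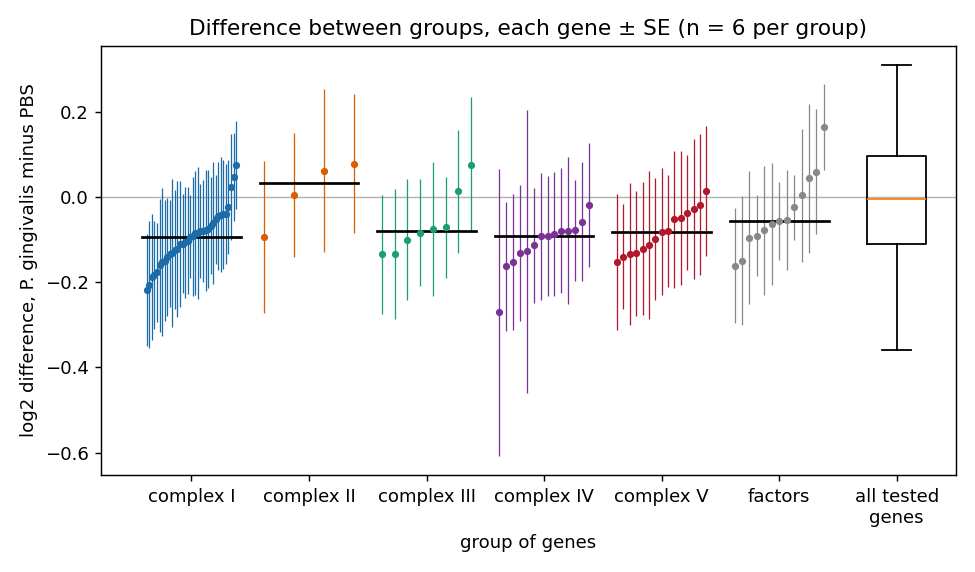
Each point is a tested gene, with its log2 difference (P. gingivalis minus PBS) and SE on the vertical axis, grouped by complex or role; black lines are group medians, and the box gives the quartiles of all 15025 tested genes with whiskers at the 5th and 95th percentiles. Complex II has a median of 0.033 (-0.13 without the 3 libraries with Fabp6 near 0) and the other groups have medians from -0.093 to -0.056.

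Complex I, the NADH dehydrogenase, is the entry point for electrons from NADH. All 36 of its subunits in the list were tested, 33 with a negative difference and a median of -0.093. Without PBS replicate 2 the median was -0.014, with 23 negative. The 7 core subunits, which carry the flavin and iron-sulfur clusters, had a median of -0.041, with 5 negative, and without P. gingivalis replicate 6 a median of 0.024, with 2 negative. The 29 accessory subunits had a median of -0.11, with 28 negative, and -0.049 without that library, with 21 negative. Without PBS replicate 2 the core median was -0.025, with 4 negative, and the accessory median -0.014, with 19 negative. The order of the 2 classes thus depended on the library left out. Ndufa7, an accessory subunit, had the smallest p of all 90 members and ran from 321 to 556 in PBS (median 378) and from 271 to 373 after P. gingivalis (median 354). Its highest library was PBS replicate 2 and its lowest P. gingivalis replicate 6, and 4 of the P. gingivalis libraries lay within the PBS range. It differed by -0.22 (SE 0.13), with a limma adjusted p of 0.992. Ndufv3, an accessory subunit beside the flavin-binding part, ran from 429.9 to 664 in PBS (median 471) and from 345 to 497 after P. gingivalis (median 442) and differed by -0.18 (SE 0.12). Here too PBS replicate 2 was the highest library and P. gingivalis replicate 6 the lowest. Ndufb9, another accessory subunit, ran from 973 to 1548 in PBS (median 1109) and from 759 to 1308 after P. gingivalis (median 1160.0) and differed by -0.084 (SE 0.15). Ndufs1, the largest core subunit, stood at 1239 to 1472 in PBS and 1132 to 1699.7 after P. gingivalis, a difference of 0.047 (SE 0.10). It belongs to the 3 complex I subunits with a positive difference, beside Ndufv1, the flavin-binding core subunit, at 0.024 (SE 0.12) and Ndufab1, the mitochondrial acyl carrier protein, at 0.075 (SE 0.10).

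Complex II, succinate dehydrogenase, has 4 subunits and also works in the citric acid cycle. Sdha, the flavin-carrying catalytic subunit, ran from 2493 to 3937 in PBS (median 2869.9) and from 2119 to 4047 after P. gingivalis (median 3107). Sdhb, the iron-sulfur subunit, ran from 1280.5 to 1757 in PBS (median 1354) and from 864 to 1937 after P. gingivalis (median 1458). Their differences were 0.078 (SE 0.16) and -0.094 (SE 0.18). The membrane anchors Sdhc and Sdhd differed by 0.0053 (SE 0.15) and 0.061 (SE 0.19). Sdhd ran from 1646 to 2444 in PBS (median 1777) and from 1237 to 3025 after P. gingivalis (median 1972). For all 4 subunits the highest library was P. gingivalis replicate 1 or 5 and the lowest was P. gingivalis replicate 6, so the extremes of complex II fell within the same treated group. The median difference of complex II was 0.033, with 1 of 4 negative. It was 0.15 without P. gingivalis replicate 6 (none negative) and -0.13 without the 3 libraries with Fabp6 near 0 (all 4 negative).

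Complex III passes electrons from ubiquinol to cytochrome c. Of its 8 subunits in the list, 6 had a negative difference, with a median of -0.079. Without PBS replicate 2 the direction turned, with a median of 0.012 and 3 of 8 negative. Uqcrb, a small subunit at the ubiquinone site, ran from 733 to 1221 in PBS (median 845) and from 562 to 936 after P. gingivalis (median 852) and differed by -0.13 (SE 0.14). Uqcrq, another small subunit, ran from 552 to 879.9 in PBS (median 626) and from 429.7 to 739 after P. gingivalis (median 620.0) and differed by -0.13 (SE 0.15). PBS replicate 2 was the highest library for both. Uqcrh, the hinge protein, ran from 1627 to 2807 in PBS (median 1840.1) and from 1416 to 2075 after P. gingivalis (median 1933) and differed by -0.10 (SE 0.14). The positive differences belonged to Uqcrfs1, the Rieske iron-sulfur protein, at 0.013 (SE 0.14) and Uqcrc1, a core subunit, at 0.076 (SE 0.16). Cyc1, the cytochrome c1 of this complex, falls outside the symbol rule and differed by 0.0051 (SE 0.17). None of these 6 genes passed (limma adjusted p at least 0.992).

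Complex IV, cytochrome c oxidase, reduces oxygen to water. Its 14 tested genes include Ndufa4, which is now counted as a complex IV subunit, and Cox7a2l, described as a factor joining complexes III and IV. Whether Cox7a2l does so in these mice was not measured. All 14 had negative differences, with a median of -0.092. Cox6b1, a subunit facing the intermembrane space, ran from 1453 to 2312 in PBS (median 1588) and from 1124 to 1879 after P. gingivalis (median 1632) and differed by -0.16 (SE 0.15). Cox7b, an accessory subunit, ran from 1768 to 3091 in PBS (median 1988) and from 1387 to 2304 after P. gingivalis (median 2046) and differed by -0.15 (SE 0.16). Cox4i1, the main form of the largest nuclear-encoded subunit, ran from 3118 to 4633 in PBS (median 3454) and from 2493 to 3752 after P. gingivalis (median 3564) and differed by -0.11 (SE 0.14). All 3 were highest in PBS replicate 2, and for all 3 the groups overlapped. Without PBS replicate 2, 6 of the 14 were negative, with a median of 0.0064.

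In complex V, 14 of 15 tested subunits had a negative difference, with a median of -0.081. The median was -0.013 without PBS replicate 2 (10 negative) and -0.0018 without P. gingivalis replicate 6 (8 negative). Atp5b, the catalytic beta subunit, ran from 11279 to 14362 in PBS (median 11822) and from 8578 to 15208 after P. gingivalis (median 12637). Atp5a1, the alpha subunit, averaged 10519.9 ± 743 in the PBS libraries and 10788 ± 2091 in the P. gingivalis ones. They differed by -0.018 (SE 0.16) and 0.015 (SE 0.15), the second being the positive one. Atp5e, the small epsilon subunit of the central stalk, ran from 614 to 1183 in PBS (median 684) and from 509 to 808 after P. gingivalis (median 700.0) and differed by -0.15 (SE 0.16). Its PBS replicate 2 value was 1183, while the other 5 PBS libraries reached at most 728.

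The 13 assembly or associated factors do not belong to the finished complexes. Their median difference was -0.056, with 9 negative, and -0.0048 without PBS replicate 2, with 7 negative. Ndufaf4, a complex I assembly factor, ran from 174 to 242 in PBS (median 195) and from 202 to 276 after P. gingivalis (median 211), and its difference of 0.16 (SE 0.10) was the highest of the 90 members (limma adjusted p = 0.992). Ndufaf3, which works with it in early complex I assembly, ran from 74.0 to 121 in PBS (median 92.4) and from 66.3 to 96.7 after P. gingivalis (median 84.8) and differed by -0.16 (SE 0.14). Their lowest libraries were PBS replicate 4 for Ndufaf4 and P. gingivalis replicate 5 for Ndufaf3. P. gingivalis replicate 6, the lowest library for 29 of the 36 complex I subunits, was the lowest for 3 of the 13 factors.

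Variation between libraries was larger than the difference between the groups. The highest library exceeded the lowest by 1.88-fold in the median member, and the SD over the 12 libraries had a median of 0.25 log2 units against 0.26 over all tested genes. Members shared their extremes. PBS replicate 2 was the highest library for 63 of 90 members, beside 14.5% of all genes, and P. gingivalis replicate 6 the lowest for 69 of 90, beside 19.7% of all genes. The median member, set to 0 at its own mean over the 12 libraries, stood at 0.46 in PBS replicate 2 and at -0.41 in P. gingivalis replicate 6. The other PBS libraries lay between -0.13 and 0.12 and the other P. gingivalis libraries between -0.29 and 0.23, so the groups overlapped. Over all tested genes this median stayed between -0.011 and 0.020. In whole tissue, fewer cells of a type and less RNA per cell cannot be told apart.

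**Figure D2:**
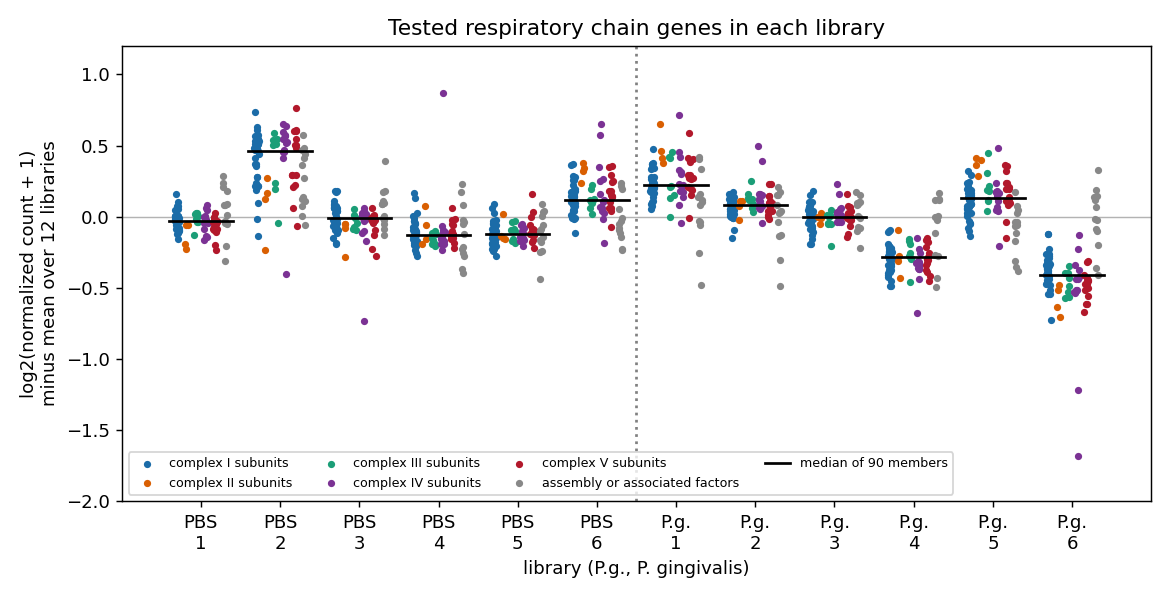
Each point is one of the 90 tested members in one library, as log2(normalized count + 1) minus that gene's mean over the 12 libraries (vertical axis), coloured by complex; black bars are the median of the 90. The median is highest in PBS replicate 2 at 0.46 and lowest in P. gingivalis replicate 6 at -0.41, where the median of the assembly or associated factors is -0.014.

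In PBS replicate 2 high values were more frequent among short transcripts. Members are short, with a median principal transcript of 892 nt against 2955 nt for tested genes with a known length. The limit of 1000 nt used here was chosen after the values were seen. PBS replicate 2 was the highest library for 44 of 50 members under 1000 nt and for 19 of 40 longer ones. The same library was highest for 60.9% of all 837 tested genes under 1000 nt, for 10.3% of the longer ones and for 75 of 77 cytosolic ribosomal protein genes. Its median stood at 0.51 for short members, 0.44 for all short genes and 0.23 for longer members. The group difference had a median of -0.11 over the short members and -0.10 over all short genes. For longer members it was -0.053 and for all longer genes 0.00092. Without PBS replicate 2 the median was -0.013 over the short members, -0.00076 over the longer members and -0.025 over all short genes. Without P. gingivalis replicate 6 it was -0.027 over the short members, 0.011 over the longer members and -0.072 over all short genes. Leaving out either library thus brought both classes of members nearer to 0. The part of transcript length in these differences was not tested.

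**Figure D3:**
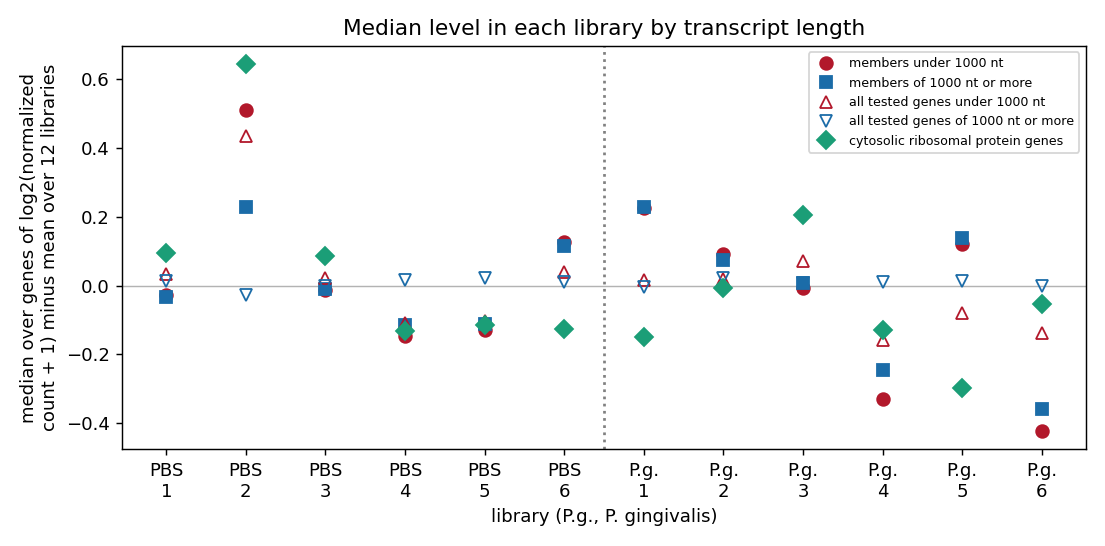
The vertical axis gives the median over genes of log2(normalized count + 1) minus each gene's mean over the 12 libraries, for members (filled circles and squares) and all tested genes (open triangles) under and over 1000 nt and for cytosolic ribosomal protein genes (diamonds). Short members, all short genes and ribosomal protein genes are high together in PBS replicate 2, while in P. gingivalis replicates 4 and 6 the members of both lengths lie below the other sets.

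In P. gingivalis replicate 6 both short and longer members were low. There the median was -0.42 for short and -0.36 for longer members, beside -0.14 for all short and -9.7e-05 for all longer genes. For cytosolic ribosomal protein genes it was -0.055. Complex II stood at -0.58 and the assembly or associated factors at -0.014. Genes of the citric acid cycle and pyruvate dehydrogenase, which feed the chain, stood at -0.38, and mitochondrially encoded messenger RNAs at -0.79. The enterocyte marker sum was lowest and the smooth muscle sum highest in this library, as given above, and their part in the low values was not tested.

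The 3 libraries with Fabp6 near 0 were the 3 highest for part of the chain. They lay above all other 9 libraries for 12 of 90 members, beside 6.46% of all genes, and below all 9 for none. Among the 12 were all 4 subunits of complex II, the core subunits Ndufs1 and Ndufv1 of complex I, the core subunit Uqcrc1 of complex III, Atp5a1, Atp5b and Atp5g3 of complex V, and Cox7a1 of complex IV. Of the longer members 10 of 40 were among them (25%, beside 6.8% of all longer genes), and of the short ones 2 of 50 (4%, beside 6.93%). A member highest in PBS replicate 2 could not be among the 12. That library was highest for 44 of 50 short and 19 of 40 longer members, so these shares by length depend on it. Sdhd stood at 2444 in PBS replicate 6 and at 3025 and 2565 in P. gingivalis replicates 1 and 5, against at most 2100.1 elsewhere. Atp5b stood at 14362, 14627 and 15208, against at most 12965. Ppargc1a, the coactivator of mitochondrial genes, was also highest in these libraries, at 619.7, 983 and 897 against at most 516, while P. gingivalis replicate 6 had the lowest value, 222. Most regulators were not. Of the 20 tested, 3 (Ppargc1a, Ppargc1b and Polg) were above all other 9 libraries and 1 was below. Nrf1 was lowest in P. gingivalis replicate 1, at 253, and highest in replicate 5, at 328. The part of these regulators in the levels was not tested. The 3 libraries with Fabp6 near 0 were set apart by that gene and are no group of the study, so no test was made.

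Cox7a1 varied more between libraries than any other tested member. It is the heart and skeletal muscle form of a complex IV subunit whose widely expressed form is Cox7a2. It ran from 238 to 391 in PBS (median 261) and from 80.9 to 429.8 after P. gingivalis (median 299.9). The P. gingivalis libraries stood, in order of replicate, at 429.8, 344, 255, 164, 366 and 80.9. P. gingivalis replicate 6 was lowest, 5.31-fold below replicate 1 of the same group, and the 3 libraries with Fabp6 near 0 were the highest. The SD over the 12 libraries was 0.66 log2 units, against 0.30 for Cox7a2, which ran from 1261 to 2231 in PBS (median 1412) and from 979 to 1610.5 after P. gingivalis (median 1497) and differed by -0.13 (SE 0.16). Cox7a1 averaged 293 ± 65.0 in the PBS libraries and 273 ± 132 in the P. gingivalis ones. It differed by -0.27 (SE 0.34), with a limma adjusted p of 0.992, and without P. gingivalis replicate 6 by 0.039. The 9 striated muscle markers summed to 256 in P. gingivalis replicate 6, the highest of the 12 libraries. The lowest sum, 103, was that of replicate 1 of the same group, and of these markers Myh4 had no reads in any library. The smooth muscle sum was also highest in P. gingivalis replicate 6, at 29944. The part of muscle cells in the values of Cox7a1 was not tested. Cox7a1 lies on chromosome 7 from 30184144 to 30186078 on GRCm38, and Sdhd lies on chromosome 9 from 50596357 to 50603812.

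**Figure D4:**
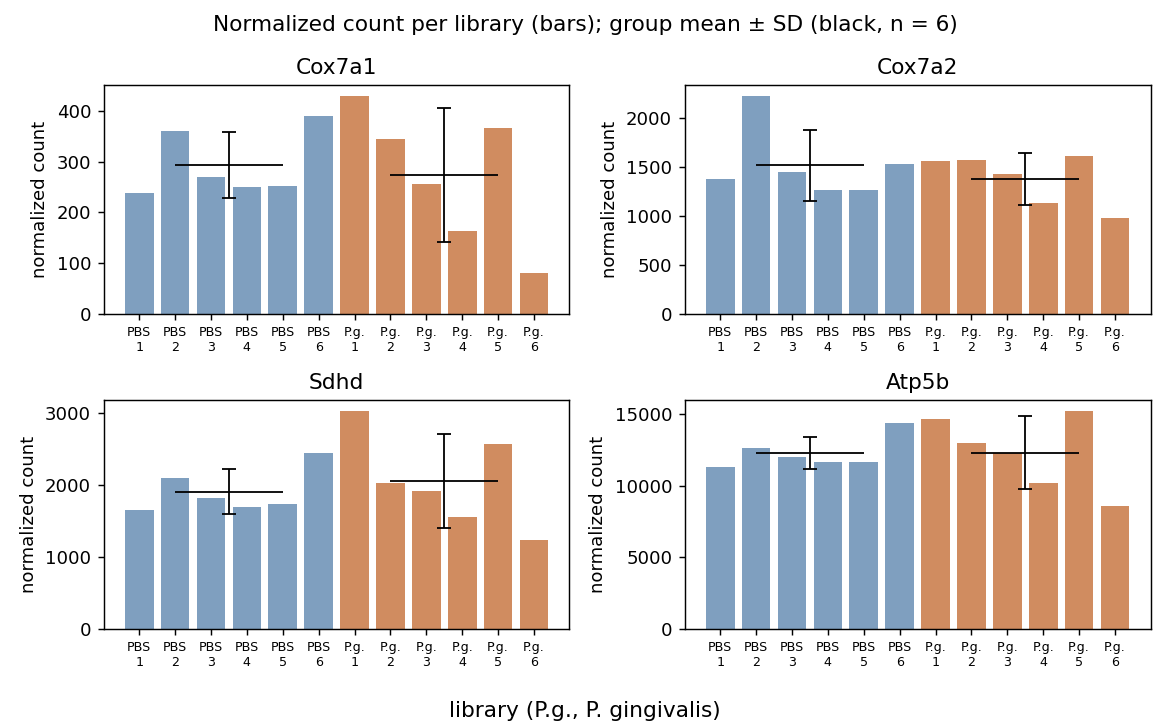
Bars give the normalized count of Cox7a1, Cox7a2, Sdhd and Atp5b in each library from 0, PBS in blue and P. gingivalis in orange, with the group mean ± SD (n = 6) in black. Cox7a1 is lowest, at 80.9, in P. gingivalis replicate 6 and Cox7a2 is highest, at 2231, in PBS replicate 2, while Sdhd and Atp5b are highest in P. gingivalis replicates 1 and 5.

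The sequences before the start sites of 3 of these genes are shown because their levels differed between libraries in different ways. Sdhd and Cox7a1 were high in the libraries with Fabp6 near 0, and Cox7a2 in PBS replicate 2. Each is the 250 bases before the RefSeq start on GRCm38.p6, of the reference strain and not of the BALB/c mice, 5′ to 3′ on the strand of the gene, and capitals mark motif matches. Sdhd is chr9:50603850-50604099, Cox7a2 is chr9:79759854-79760103 (both minus strand) and Cox7a1 is chr7:30183921-30184170 (plus strand).
Sdhd: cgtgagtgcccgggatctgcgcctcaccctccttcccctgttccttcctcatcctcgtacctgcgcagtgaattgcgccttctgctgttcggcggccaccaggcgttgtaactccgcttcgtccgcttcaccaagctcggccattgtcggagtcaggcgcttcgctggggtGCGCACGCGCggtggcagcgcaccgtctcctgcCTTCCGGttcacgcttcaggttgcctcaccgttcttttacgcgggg
Cox7a2: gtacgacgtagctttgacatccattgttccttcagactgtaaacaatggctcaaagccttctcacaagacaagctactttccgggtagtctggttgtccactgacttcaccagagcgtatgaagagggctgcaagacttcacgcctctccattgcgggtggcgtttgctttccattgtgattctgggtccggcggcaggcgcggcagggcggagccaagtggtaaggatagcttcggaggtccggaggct
Cox7a1: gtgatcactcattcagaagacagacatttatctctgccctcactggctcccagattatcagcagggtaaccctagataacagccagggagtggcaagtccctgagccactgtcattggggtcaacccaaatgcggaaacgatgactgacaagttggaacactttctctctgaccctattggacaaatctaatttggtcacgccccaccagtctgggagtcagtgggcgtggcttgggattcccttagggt
In Sdhd the first capitals mark a match to the NRF1 motif and the second a match to the ETS motif (CCGGAAG) on the other strand. Neither motif, nor YY1 (ATGGCGG) or ERR (TCAAGGTCA), is in the windows shown for Cox7a2 and Cox7a1. Other members paired motifs and levels differently. Cox6a1, at 2075 in PBS replicate 2 and 2057 in P. gingivalis replicate 1, has NRF1 and ETS matches before its start. Ndufa7, highest in PBS replicate 2, has a YY1 match there. Uqcrc1, high in the libraries with Fabp6 near 0, has NRF1 matches only after its start. A link between motifs and levels was not tested.

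Promoters of 80 of the 96 members were in the RefSeq table, each window running from 250 bases before to 50 after the start, and both strands were searched. The NRF1 motif was in 21 of 80 (26.2%), against 10.7% of the 10881 tested genes with a promoter and 5.19% of all 27025 genes in the table. The ETS motif was in 20 of 80 (25%, against 18.7% and 9.93%). The YY1 motif was in 13 (16.2%, against 8.7% and 4.69%). The ERR motif was in 2, Sdhd and Atp5g3, both among the 12 members highest in the libraries with Fabp6 near 0. A match is a run of letters and no measure of binding.

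Several subunits come in related forms made by separate genes, and 5 such pairs had both genes tested. Within each library the ratio of the pair was taken and compared by an exact permutation test over all ways to assign 6 of the 12 libraries to a group, two-sided, with adjustment over the 5 pairs. No ratio passed, and every adjusted p was 0.874 (exact permutation test). The log2 ratio of Cox7a1 to Cox7a2 was -2.37 ± 0.23 in PBS and -2.50 ± 0.61 in the P. gingivalis libraries, so it differed by -0.14 (SE 0.27, exact permutation p = 0.669). It ran from -3.58 in P. gingivalis replicate 6 to -1.86 in replicate 1 of the same group. Cox7a2l itself ran from 841 to 1316 in PBS (median 956) and from 817 to 1121 after P. gingivalis (median 892), and its ratio to Cox7a2 differed by 0.053 (SE 0.13, exact permutation p = 0.669). Cox6b2, a form known from testis, ran from 11.4 to 36.5 in PBS (median 19.5) and from 7.83 to 28.0 after P. gingivalis (median 21.2) and was far below Cox6b1, with a log2 ratio of -6.31 ± 0.72 in PBS and -6.27 ± 0.38 after P. gingivalis (exact permutation p = 0.874).

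Atp5g1, Atp5g2 and Atp5g3 encode the same mature c subunit of the ATP synthase ring behind different import signals. Atp5g3 ran from 2209 to 3018 in PBS (median 2343) and from 1668 to 3266 after P. gingivalis (median 2501). Atp5g1 ran from 374 to 638 in PBS (median 423) and from 305 to 537 after P. gingivalis (median 459). Atp5g2 ran from 333 to 542 in PBS (median 344) and from 286 to 396 after P. gingivalis (median 337). The groups overlapped for all 3 genes. The log2 ratio of Atp5g2 to Atp5g3 in the PBS libraries, in order of replicate, was -2.77, -2.39, -2.60, -2.69, -2.79 and -3.16. In the P. gingivalis libraries it was -3.21, -2.86, -2.57, -2.60, -3.30 and -2.54. The lowest 3 of the 12 values were those of the libraries with Fabp6 near 0, and the highest was that of PBS replicate 2. The group difference was -0.11 (SE 0.17, exact permutation p = 0.541), and for Atp5g1 to Atp5g3 it was -0.021 (SE 0.10, exact permutation p = 0.853).

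**Figure D5:**
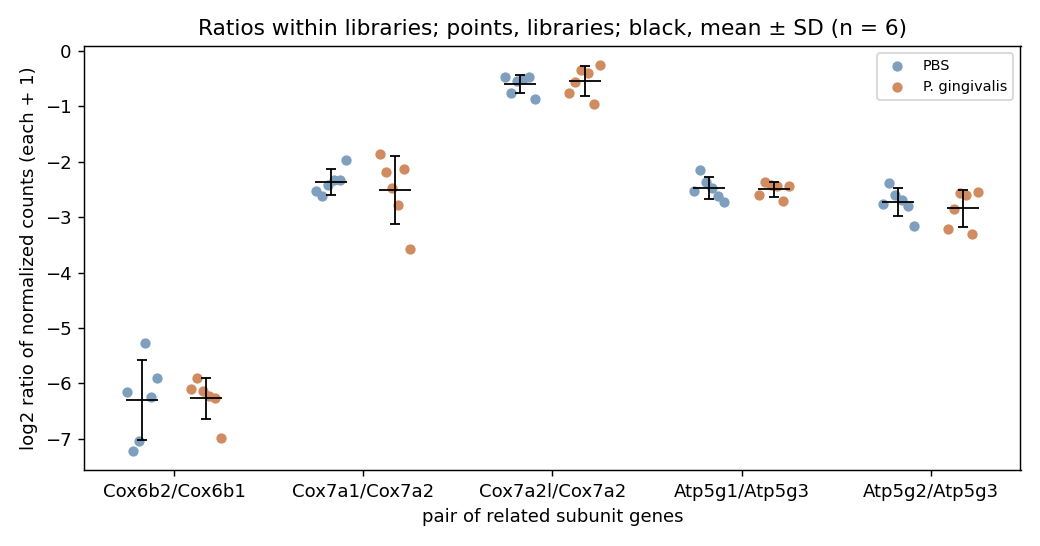
Points give the log2 ratio of 2 related subunit genes in each library, PBS in blue and P. gingivalis in orange, with group means ± SD (n = 6) in black. The groups overlap for all 5 pairs, and the lowest Cox7a1 to Cox7a2 ratio, -3.58, is that of P. gingivalis replicate 6.

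The 6 members below the filter are all forms or relatives of complex IV subunits known from particular tissues or conditions. Cox8c and Cox7b2 had 0 reads in all 12 libraries, which allows up to 3 reads per library. Cox4i2, a lung form of Cox4, ran from 4.81 to 9.47 in PBS (median 5.29) and from 0 to 3.62 after P. gingivalis (median 1.97). Each P. gingivalis library was below every PBS library. Groups without overlap, in either direction, were found for 0.147% of the 27225 genes with a read, but the whole gene rests on 40 reads in PBS and 10 after P. gingivalis. In a limma fit without a filter its difference was -1.62 (SE 0.40, unadjusted p = 0.0011, limma adjusted p = 0.364), so it did not pass. An unadjusted p under 0.05 was reached in that fit by 4.08% of the genes, Cox4i2 and Cox8b among them. Cox4i2 lies on chromosome 2 from 152754173 to 152765037.

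Cox8b, the heart and brown fat form of Cox8, ran from 2.51 to 11.5 in PBS (median 7.89) and from 0 to 5.98 after P. gingivalis (median 2.98). The groups overlapped, and 51 reads stood against 14. Without a filter it differed by -1.48 (SE 0.52, limma adjusted p = 0.906). The sums of fat cell markers were mostly lower in the P. gingivalis libraries too. Their 10 genes summed to 2749 to 12756 in PBS and 558 to 4575 after P. gingivalis, with none at 0 in all libraries, while the 5 brown fat markers summed to 14.0 to 27.5 and 18.1 to 30.9, and Ucp1 was above 0 in 1 library. The 10 smooth muscle markers summed to 13208 to 22951 in PBS and 8425 to 29944 after P. gingivalis. The part of these cells in the values of Cox4i2 and Cox8b was not tested. Cox6a2, the muscle form of Cox6a, had 18 and 20 reads, and Ndufa4l2, a hypoxia-induced relative of Ndufa4, had 38 and 28.

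Levels per length differed widely between the genes of the chain. Here a level is the normalized count per kilobase of principal transcript, averaged over the libraries. The 77 tested subunits had a median of 896 per kilobase (747 over all 83) and assembly or associated factors a median of 59.1, and the highest factor, Sdhaf4, reached 94.9. The median level per kilobase of tested subunits was 522 in complex I, 1163 in complex II, 1545 in complex III, 2144 in complex IV and 1563 in complex V. With its 6 untested genes the complex IV median was 1275, below those of complexes III and V. Atp5b was the highest member, at 6401 ± 588 per kilobase in PBS and 6425 ± 1334 after P. gingivalis. Cox4i1 led its complex at 4705 ± 733 and 4364 ± 725 per kilobase. Uqcrh led complex III at 3589.6 ± 794 and 3323 ± 499.6. Sdhd led complex II at 1548 ± 252 and 1669 ± 531, and Ndufb9 led complex I at 1640.2 ± 289 and 1557 ± 305. The level of Cox7a1 was 747 ± 165 per kilobase in PBS, against 2305 ± 552 for Cox7a2. Many of these short genes have processed pseudogenes, and how the counting treated reads that match both is not given in the sources used here, so levels of single small subunits are uncertain. Levels also rest on the transcript length used. It was 2675.5 nt for Atp5g1, 2447.5 nt for Ndufab1 and 2413 nt for Ndufb2, which put them among the longer members. Their levels at these lengths were 166, 208 and 107 per kilobase.

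Other genes of the pathway did not pass either. Limma called 0 in either direction in each of the lists for assembly outside the symbol rule (41 tested genes), other electron carriers and subunits (9), the citric acid cycle and pyruvate dehydrogenase (18), regulators of mitochondrial gene expression (20), inner and outer membrane carriers (7), mitochondrially encoded messenger RNAs (10), mitochondrial ribosomal proteins (76) and cytosolic ribosomal proteins (77). For complex I assembly, Lyrm2 differed by -0.32 (SE 0.18) and Tmem126b by -0.14 (SE 0.089). For complex III assembly, Ttc19 differed by 0.11 (SE 0.087) and Uqcc2 by -0.15 (SE 0.14). For complex IV, Surf1, an assembly factor, differed by -0.18 (SE 0.093) and Cox19, a copper-handling factor, by -0.23 (SE 0.11). From each list the 2 genes with the smallest p are named, and Cyc1, Nrf1, Gabpa and Ppargc1a were added after their values were seen. For complex V, Atpif1, the inhibitor of the ATP synthase, differed by -0.11 (SE 0.16) and Atpaf2, an assembly factor, by -0.086 (SE 0.15). Etfdh and Etfb, which pass electrons from fatty acid oxidation to ubiquinone, differed by -0.14 (SE 0.12) and -0.13 (SE 0.12). Of the mitochondrial ribosomal proteins 56 of 76 had a negative difference (median -0.045; without PBS replicate 2, 27 of 76 and 0.015), with Mrps27 at 0.42 (SE 0.12) and Mrps6 at -0.40 (SE 0.13). All 77 tested cytosolic ribosomal protein genes had a negative difference (median -0.15; without PBS replicate 2, 65 of 77 and -0.035), with Rps29 at -0.28 (SE 0.13) and Rps28 at -0.23 (SE 0.12).

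The citric acid cycle list had a median difference of -0.0069, which was 0.10 without P. gingivalis replicate 6 and -0.086 without the 3 libraries with Fabp6 near 0. In this list Pdhx, a component of pyruvate dehydrogenase, stood at 0.13 (SE 0.088) and Idh2, the mitochondrial NADP-dependent isocitrate dehydrogenase, at -0.20 (SE 0.14). Of the regulators, 17 of 20 had a positive difference, with a median of 0.063, and Pprc1, a relative of Ppargc1a, stood at 0.31 (SE 0.19) and Polg, the mitochondrial DNA polymerase, at 0.17 (SE 0.11). Nrf1 and Gabpa, the factors whose motifs were counted, differed by 0.013 (SE 0.078) and 0.042 (SE 0.073). Slc25a4, a carrier that exchanges ADP and ATP, differed by -0.41 (SE 0.23) and Ucp2, an uncoupling protein, by 0.27 (SE 0.22).

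All 10 tested mitochondrially encoded subunits had positive differences, with a median of 0.25 and a median SE of 0.31, and none passed. Without the 3 libraries with Fabp6 near 0 the median was 0.14, with 2 of 10 negative. The 2 with the smallest p, the complex I subunits mt-Nd5 and mt-Nd2, differed by 0.64 (SE 0.47) and 0.48 (SE 0.43). The 13 mitochondrial messenger RNAs, of which 10 reached the limit for testing, summed to 1.10 ± 0.112 times the 96 nuclear members in PBS. After P. gingivalis they summed to 1.22 ± 0.101 times. Most of the mitochondrial sum came from 1 gene, mt-Co1, at 95262 of 117570 in PBS replicate 2 and 106305 of 163883 in P. gingivalis replicate 1. It differed by 0.044 (SE 0.32). The ratio ran from 0.962 in PBS replicate 2 to 1.38 in P. gingivalis replicate 1, and the ranges of the groups overlapped.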

How the data were processed

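Polyadenylated RNA of distal ileum was sequenced from TruSeq libraries, per the labels' protocols. FastQC, HISAT2, Cufflinks and DESeq2 and the build GRCm38 (mm10) are listed, without versions or roles, per the submitters' processing notes. How reads were counted, with which strand setting and annotation, was not given in the sources used here. The deposited table holds a normalized signal per gene: read counts scaled by DESeq2, by its name. Each library's values were multiples of 1 step, and division by it left 100% of them whole to within 0.001 reads; edgeR on these reads called 0 genes.

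Genes with a mean of at least 10 were tested with limma 3.58.1 (R 4.3.3, mean-variance trend, log2(value + 1), two-sided, Benjamini-Hochberg over 15025 genes), with edgeR 4.0.16 and DESeq2 1.42.0 on recovered reads as alternatives. Floors cover counting error only. Transcript lengths are medians of APPRIS principal transcripts in GENCODE basic for GRCm38, found for all 96 members and 88.4% of tested genes. The members, lists and rules were chosen with earlier results of these data known. Named were, in each complex, the 2 subunits with the smallest p and the highest level per length, tested isoform pairs, the 3 members with the largest SD, 2 factors, and 2 genes per pathway list; Ndufs1 and other members given with values, and Cyc1, Nrf1, Gabpa and Ppargc1a, were added after their values were seen. The limma steps were tested on simulated counts whose changes were far larger than the differences of the tested members. That run therefore gives no measure of power for differences of their size. Alternatives were other pseudocounts, filters and scalings, a replicate block, sample weights, edgeR, DESeq2 and left-out libraries.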

Additional observations from a re-analysis of the deposited data

Results flagged for a closer look

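Among the values of the named members, the complex medians and the isoform ratios, 14 of the 68 sets of 6 values held a library lying far outside the remaining 5. By chance about 1 set in 20 would. In 12 of the 14 that library was PBS replicate 2, always as the highest. Ndufa7 stood at 556 against 321 to 403 in the other PBS libraries, and Ndufv3 stood at 664 against 429.9 to 493. Ndufb9 stood at 1548 against 973 to 1157 in the other PBS libraries, and Uqcrb stood at 1221 against 733 to 872. Uqcrh stood at 2807 against 1627 to 1996 in the other PBS libraries, and Cox7b stood at 3091 against 1768 to 2223. Cox4i1 stood at 4633 against 3118 to 3492 in the other PBS libraries, and Atp5g2 stood at 542 against 333 to 370.2. Atp5e stood at 1183 against 614 to 728 in the other PBS libraries, and Cox7a2 stood at 2231 against 1261 to 1529. Cox7a2l stood at 1316 against 841 to 997 in the other PBS libraries, and Atp5g1 stood at 638 against 374 to 456. Ndufaf4 was 276 in P. gingivalis replicate 1, while its group otherwise ran from 202 to 222. The log2 ratio of Cox6b2 to Cox6b1 was -6.99 in P. gingivalis replicate 6 against -6.27 to -5.91. These genes share libraries, so these cases are not independent of one another.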

How the results depend on the processing

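Under the 24 alternatives beside the reported fit, limma, edgeR and DESeq2 called 0 members in every case, and the median difference of the members stayed negative in every case. It ran from -0.17 without the 3 libraries with Fabp6 near 0 to -0.0074 without PBS replicate 2, and was -0.012 with sample weights. Leaving out 1 library left from 50 members with a negative difference (without PBS replicate 2) to 85 (without P. gingivalis replicate 1). Counts over all genes moved more. Limma called 1 lower with a pseudocount of 5, 1 higher and 19 lower with sample weights, and 1 higher without the 3 libraries with Fabp6 near 0, and DESeq2 called 3 higher and 25 lower. Leaving out 1 library gave from 0 to 1 higher and from 0 to 52 lower, with 7 lower without PBS replicate 5 and 52 without P. gingivalis replicate 6. Differences of single members near 0 changed sign without passing the test in any setting. With sample weights, Ndufb9 differed by 0.014, Atp5b by 0.039, Atp5g1 by 0.036 and Atp5g3 by 0.051. In edgeR, Atp5b differed by 0.013 and Atp5g3 by 0.0092. In DESeq2, Atp5b differed by 0.0057 and Atp5g3 by 0.0026. Without the 3 libraries with Fabp6 near 0, Sdha differed by -0.015, Sdhd by -0.11, the Atp5g1/Atp5g3 log2 ratio by 0.0082 and the Atp5g2/Atp5g3 log2 ratio by 0.0082. Without the 2 libraries with much 18S ribosomal RNA, Atp5b differed by 0.018, Atp5g3 by 0.022 and the Cox6b2/Cox6b1 log2 ratio by -0.066. Leaving out 1 library at a time gave differences for Ndufb9 from -0.14 to 0.016, Uqcrh from -0.15 to 0.0078, Cox7a2l from -0.13 to 0.0061, Atp5g1 from -0.11 to 0.055, Atp5g3 from -0.11 to 0.081, Cox6b2 from -0.29 to 0.10, Atp5b from -0.084 to 0.081, Sdhd from -0.063 to 0.20, Sdhb from -0.20 to 0.037 and Cox7a1 from -0.44 to 0.039, and for the Cox6b2/Cox6b1 log2 ratio from -0.15 to 0.24, Atp5g1/Atp5g3 log2 ratio from -0.070 to 0.043, Cox7a1/Cox7a2 log2 ratio from -0.27 to 0.076 and Cox7a2l/Cox7a2 log2 ratio from -0.0043 to 0.14. The cause was not tested. Samples share only a number in their titles, and the correlation of deviations between same-numbered samples ran from -0.54 to 0.081. With that number as a replicate block limma called 0 members and 0 of all genes, with a members' median of -0.084, so it changed no call. In limma with the block 462 genes had an unadjusted p under 0.05. The tested members had mean normalized counts of at least 21.1, while Cox4i2 and Cox8b rest on 50 and 65 reads.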
